A study of Danio rerio with 9 samples.

Results

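The genes described are the secreted Wnt ligands, the Frizzled and Ror receptors that bind them, and the secreted proteins that modulate them, measured by bulk RNA sequencing in zebrafish tailbuds. They were chosen by gene name: every line of the deposited count table whose name begins as a *wnt*, *fzd*, *ror1*, *ror2*, *frzb*, *sfrp*, *dkk*, *rspo*, *notum* or *wif1* gene. Of 31956 lines with a name, 60 matched. They hold 59 genes, because the name *wnt8a* occurs on a pair of lines and the line with the higher mean count was kept; the other holds 0 reads in every sample. The 59 genes are 25 ligands, 13 Frizzled receptors, 2 Ror receptors and 19 secreted modulators. edgeR's filter on low counts kept 55 of them among 19914 genes tested, and left out *rspo4*, which has 0 reads in every sample, and *wnt2*, *wnt2ba* and *wnt7ab*, whose reads were few. A gene near 0 in a single genotype passed this filter through the other genotypes.

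The 9 samples were 3 of wild-type embryos, 3 of tg(*hsp70l:tbx16*) embryos and 3 of tg(*hsp70l:msgn1*) embryos, each a separate pool of 10 tailbuds. Both transgenes place the coding sequence of a mesodermal transcription factor behind the *hsp70l* heat-shock promoter, which acts in all tissues; *tbx16* encodes a T-box protein and *msgn1* (mesogenin1) a basic helix-loop-helix protein, and both act in the passage of tailbud progenitors into presomitic mesoderm. All genotypes, wild type included, received a 30 min heat shock at the 2 to 3 somite stage, and tailbuds were dissected 3 h later. The labels give 28 °C for the heat shock and the methods a higher temperature. The fish were of the Tüpfel long fin strain. The wild-type samples pooled embryos from the tg(*hsp70l:msgn1*) crosses that genotyping showed to lack the transgene, whereas tg(*hsp70l:tbx16*) embryos had a homozygous and a wild-type parent, so that in this line genotype cannot be told apart from parentage.

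Wnt proteins are lipid-modified secreted ligands. Through Frizzled receptors and the Lrp5 and Lrp6 co-receptors they stabilise β-catenin, which acts with Tcf and Lef factors in the nucleus; through Frizzled, Ror and the planar cell polarity proteins they also direct cell movement. In the zebrafish tailbud *wnt8a* and *wnt3a* maintain the progenitors and promote mesoderm, while *wnt5b* (the *pipetail* gene) and *wnt11f2* (the *silberblick* gene) are needed for convergence and extension. Sfrp, Frzb and Wif1 proteins bind Wnts outside the cell, and some Dkk proteins block Lrp5 and Lrp6. Notum removes the lipid from Wnts, and R-spondins (*rspo*) raise the number of Wnt receptors at the surface.

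Read counts summed to between 34971233 and 43889121 per wild-type sample, between 39924412 and 49654769 in the tbx16 line and between 30750552 and 38010466 in the msgn1 line. Reads assigned to *tbx16* were higher in its own line (log2 fold change 1.15, adjusted p = 0.00149) and reads assigned to *msgn1* in its own (1.19, adjusted p = 0.0262); transgenic and endogenous reads were not separated. Some marker sums moved with the genotypes. The summed normalized count of 8 markers of mesodermal progenitors and presomitic mesoderm, which include *tbx16* and *msgn1* themselves, ran from 124580 to 142998 in wild type, from 72055 to 89277 in the tbx16 line and from 160782 to 182955 in the msgn1 line. Without those genes, the other 6 summed to between 81609 and 92856 in wild type, between 24614 and 43298 in the tbx16 line and between 89626 and 91797 in the msgn1 line, where the sum lay within the wild-type range. Single genes in the msgn1 line did not all do so. All samples lay below wild type for *tbxta* (−0.73, adjusted p = 0.0703) and *fgf8a* (−0.64, adjusted p = 0.261). They lay above it for *tbx6* (0.33, adjusted p = 0.616). *tbx16l*, *her1* and *her7* overlapped wild type, and edgeR called none of the 6 there. The summed normalized count of 6 neural markers ran from 21078 to 22043, from 6548 to 9648 and from 13318 to 16163 in the same order of genotypes. In the tbx16 line edgeR called 5 of them lower, but not *sox3* (−0.23, adjusted p = 0.392). In the msgn1 line the log2 fold change was below 0 for all 6, and only *sox19a* was called (−0.78, adjusted p = 0.0463). *elavl3* overlapped wild type there (−0.19, adjusted p = 0.786). For the 3 of 4 notochord markers in the table the ranges were 22689 to 31960, 13419 to 15889 and 22502 to 31342. Most of that sum was *col2a1a*. By edgeR all 3 were lower in the tbx16 line. In the msgn1 line *noto* was lower (−0.80, adjusted p = 0.0368). *shha* (−0.44, adjusted p = 0.35) and *col2a1a* (−0.05, adjusted p = 0.933) were not called there. For 4 of 5 blood and vessel markers the ranges were 6823 to 7971, 12874 to 21106 and 5857 to 8164. These genes went both ways in the tbx16 line by edgeR. *etv2* (1.87, adjusted p = 0.000751) and *tal1* (0.84, adjusted p = 0.00428) were higher and *kdrl* was lower (−2.19, adjusted p = 8.93e-06). *gata1a* did not differ at an adjusted p below 0.05 (0.10, adjusted p = 0.787). For 4 yolk syncytial layer markers the ranges were 28124 to 32129, 1146 to 16551 and 28666 to 34171. Replicate 1 of the tbx16 line held 16551 and the other samples of that line 1146 and 2400. The same replicate was at 1285 for 8 head markers, beside 371 and 451 in its line and 1086 to 1286 in wild type, while the msgn1 line ran from 712 to 1254. In wild type most of that sum was *emx3*, which edgeR found lower in the tbx16 line (−1.86, adjusted p = 0.000112) and the msgn1 line (−0.98, adjusted p = 0.0484). *otx2a*, *otx2b*, *six3a*, *six3b* and *foxg1a* were instead highest in tbx16-line replicate 1 and msgn1-line replicate 3. *otx2a* was at 370.5 and 249.2 there, against 38.6 to 79 in wild type. *rx3* and *en2a* did not show this. Sums of 4 somite and muscle markers, 5 epidermis markers and the 1 hatching gland marker in the table overlapped between all genotypes. The epidermis sum was mostly *krt4*, *krt5* and *cyt1*. By edgeR *tp63* was lower in the tbx16 line (−1.33, adjusted p = 0.000162) and the msgn1 line (−1.04, adjusted p = 0.011), and *epcam* in the tbx16 line (−0.65, adjusted p = 0.0462). The hatching gland marker *ctslb* ran from 143 to 3130 in wild type, 4 to 3424 in the tbx16 line and 511 to 2536 in the msgn1 line. No listed marker was at 0 in a whole genotype. The part of these shifts in the results below was not tested, and in pooled tailbuds fewer cells of a type and less RNA per cell cannot be told apart.

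Normalized read counts below are scaled by edgeR's TMM factors to the mean library, and are compared within a gene, since they are not divided by transcript length. Differences are log2 fold changes from edgeR's quasi-likelihood fit of all 9 samples, and p-values are adjusted over all 19914 genes by the Benjamini-Hochberg method. The standard error (SE) given after ± is not reported by edgeR. It was computed as the absolute log2 fold change divided by the square root of the F statistic. For genes with a genotype near 0 reads it is a rough value. A gene is called at an adjusted p below 0.05. For a single gene 3 samples against 3 cannot give an exact permutation p below 0.1, so each call rests on the spread shared across genes.

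In tg(*hsp70l:tbx16*) tailbuds 28 of the 55 Wnt genes tested differed from wild type, 24 of them lower and 4 higher, where 30.7% of all genes tested were called, 15.7% lower and 15% higher. Of the ligands, 13 of 22 were lower, *wnt3a*, *wnt8a*, *wnt2bb*, *wnt11* and *wnt5b* among them, and *wnt4b* alone was higher. Of the 33 receptors and modulators tested, 11 were lower and 3 higher. The median log2 fold change was −1.18 over the ligands and −0.20 over the receptors and modulators, against 0.03 over all genes. By other criteria, 26 of the Wnt genes were called and changed at least 1.5-fold (24.1% of all genes), 33 had an unadjusted p below 0.05 (41.9% of all genes), and in 38 the samples of the tbx16 line and wild type did not overlap (52.8% of all genes). Scaling by library size alone, which moved the median of all genes to 0.18, left 24 Wnt genes called, 19 of them lower: *fzd3a*, *ror2*, *sfrp1a*, *wnt7aa* and *wnt11f2* lost their calls, *fzd8b* gained one as a higher gene, and no called Wnt gene changed direction; over all genes the lower share of calls went from 51.1% to 37%.

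**Figure D1:**
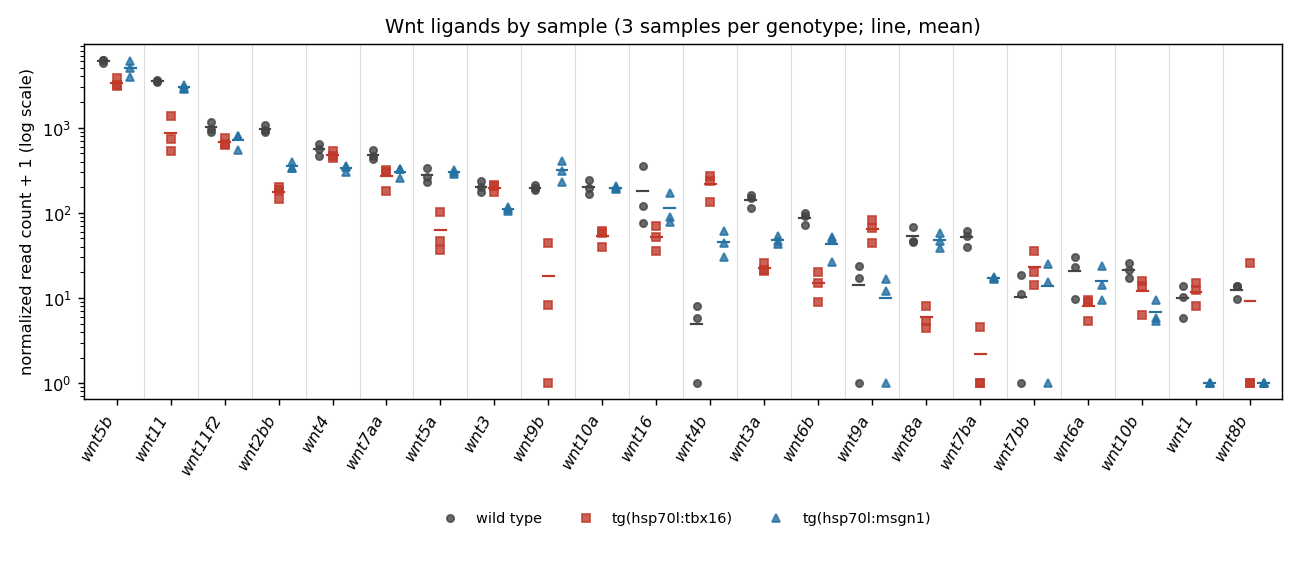
Normalized read count plus 1 (log scale) of the 22 Wnt ligands tested, in each of the 9 samples; points are samples, short lines are genotype means, and genes are ordered by level. Red squares (tbx16 line) lie below the grey circles (wild type) for most ligands from *wnt5b* to *wnt7ba*, and far above them for *wnt4b*, where the tbx16 line reached 272.2 and wild type at most 7.0.

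Among the ligands listed here in the β-catenin class, 9 of 16 were lower in the tbx16 line and none was higher. Of all genes tested, 15.7% were lower and 15% higher. Ligands were classed by a list, and how each one signals in the tailbud was not tested. *wnt3a* stood at 149.6, 113.4 and 159.8 normalized counts in wild-type replicates 1, 2 and 3, and at 20.2, 20 and 24.9 in the tbx16 line. All tbx16-line samples lay far below all wild-type samples, and the difference was −2.70 ± 0.28 (adjusted p = 9.4e-05), 6.48-fold. *wnt8a* was lower still against its wild-type level: wild type held 66.6, 44.4 and 45.3 normalized counts and the tbx16 line 3.5, 4.3 and 7.1. The groups did not overlap, at −3.37 ± 0.45 (adjusted p = 0.000448), although its reads in the tbx16 line were few. *wnt2bb*, which acts in liver specification in zebrafish, had 890.4, 946.8 and 1080 normalized counts in wild type and 183.5, 202.4 and 143.1 in the tbx16 line. It fell without overlap, by −2.46 ± 0.17 on the log2 scale (adjusted p = 1.07e-05), or 5.51-fold.

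*wnt10a*, known from tooth and hair development in mammals, had 239.9, 166.0 and 192.6 normalized counts in wild type against 38.6, 57.2 and 59.5 in the tbx16 line (−1.94 ± 0.24, adjusted p = 0.000285). Here too the samples of the genotypes were well apart. *wnt9b*, a ligand of kidney tubule formation in the mouse, was at 211.6, 192.9 and 184.9 in wild type and at 0, 7.2 and 43.5 in the tbx16 line. The tbx16-line samples were spread from no read to a low level, all below wild type, with a difference of −3.55 ± 0.82 (adjusted p = 0.00907). *wnt16*, counted in this class by the list alone and needed in zebrafish somites for blood stem cell specification, stood at 74.8, 118.1 and 351.4 in wild type and at 35.1, 68.6 and 50.7 in the tbx16 line. Wild-type replicate 3 was far above the other wild-type samples. The difference was −1.81 ± 0.56 (adjusted p = 0.0321), and the call was lost without wild-type replicate 3 or without any single tbx16-line replicate (log2 fold change −2.19 to −0.90, adjusted p 0.0175 to 0.157 over the samples left out). Of the remaining lower members of this class, chosen after their values were seen, *wnt7ba* held 0, 3.6 and 0 normalized counts in the tbx16 line against 38.3, 60.8 and 52.0 in wild type (adjusted p = 0.00199). *wnt6b* held 7.9, 19.3 and 14.2 against 90.3, 70.1 and 97.2 (adjusted p = 0.00127). Neither gene's samples overlapped between the genotypes. *wnt7aa* was lower by a smaller amount (−0.84 ± 0.23, adjusted p = 0.0179), a call lost without wild-type replicate 3 (adjusted p up to 0.0597).

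Among the 6 ligands listed here under planar polarity or calcium signalling, 4 were lower in the tbx16 line, 1 was higher and 1, *wnt4*, was not called. The shares of all genes tested were 15.7% lower and 15% higher. *wnt5b*, with the most reads of any ligand, had 6150, 5691 and 6192 normalized counts in wild type and 3110, 3183 and 3792 in the tbx16 line. The groups were apart and the difference was −0.84 ± 0.15 (adjusted p = 0.00245), 1.79-fold. *wnt11*, known in zebrafish for its role in muscle and also named *wnt11r* or *wnt11f1*, was at 3605, 3495 and 3469 in wild type and at 525.0, 730.1 and 1349 in the tbx16 line. Wild-type samples were close together and the tbx16-line samples, all lower, varied among themselves; the difference was −2.02 ± 0.27 (adjusted p = 0.000509). *wnt5a* stood at 226.2, 335.5 and 264.8 in wild type against 36.0, 101.5 and 46.2 in the tbx16 line (−2.16 ± 0.35, adjusted p = 0.00138). No tbx16-line sample reached the lowest wild-type sample. *wnt11f2* differed less (−0.57 ± 0.17, adjusted p = 0.0294) and lost its call without wild-type replicate 1 or 3 or tbx16-line replicate 1 or 3 (adjusted p up to 0.103).

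*wnt4b*, 1 of the pair of zebrafish *wnt4* genes, was the ligand that rose. It held 0, 7.0 and 4.8 normalized counts in wild type, which is 0, 6 and 5 reads, and 272.2, 237.4 and 132.4 in the tbx16 line. Every tbx16-line sample was many times above every wild-type sample, and the log2 fold change was 5.79 ± 0.67 (adjusted p = 0.000208). The other gene of that pair, *wnt4*, had 637.7, 562.2 and 468.9 normalized counts in wild type and 458.3, 433.3 and 534.1 in the tbx16 line, with overlapping samples (−0.23, adjusted p = 0.311).

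Of the Frizzled receptors, 3 of 13 were lower and 1 was higher in the tbx16 line, 30.8% called beside 30.7% of all genes, with a median log2 fold change of −0.04. The pair with the most reads were not called. *fzd7a*, a receptor of gastrulation movements, had 15438, 15172 and 15968 normalized counts in wild type and 12852, 14924 and 16252 in the tbx16 line (−0.08, adjusted p = 0.627). *fzd10* had 14781, 15672 and 14662 against 11624, 14700.1 and 15726 (−0.10, adjusted p = 0.605). In both the genotypes overlapped, and both differences turned positive, at 0.06 and 0.04, with library size as the sole scaling.

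**Figure D2:**
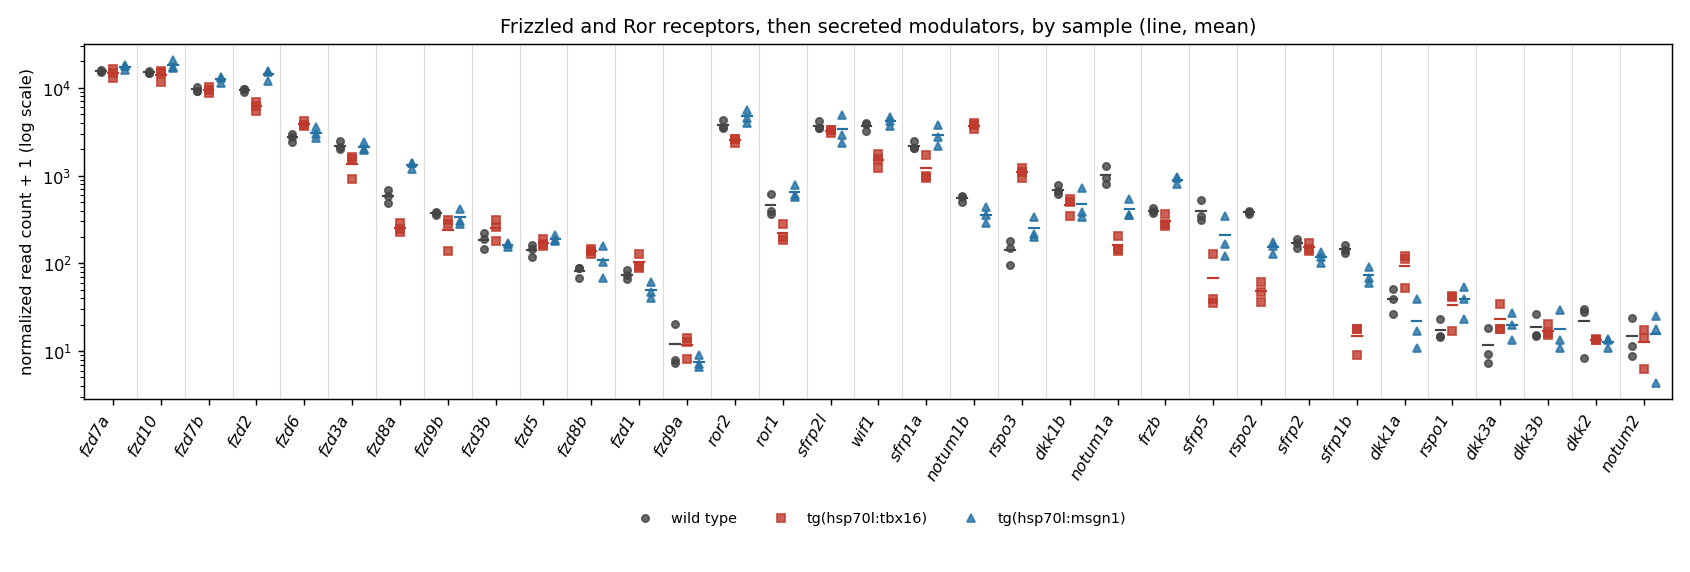
Normalized read count plus 1 (log scale) of the 13 Frizzled genes, the 2 Ror genes and the 18 secreted modulators tested, by sample; short lines are genotype means and each role is ordered by level. The receptors with the most reads, *fzd7a* and *fzd10*, show genotypes side by side, whereas *notum1b* and *rspo3* stand far higher, and *rspo2*, *notum1a* and *sfrp1b* far lower, in the tbx16 line (red squares) than in wild type (grey circles).

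*fzd8a*, a receptor that works through β-catenin, was the Frizzled gene with the largest decrease among those called. Its normalized counts were 581.1, 486.3 and 682.7 in wild type and 290.6, 243.1 and 229.3 in the tbx16 line. All tbx16-line samples lay below wild type, by −1.20 ± 0.16 on the log2 scale (adjusted p = 0.000504), or 2.29-fold. *fzd6*, which acts in planar polarity of the hair and skin in the mouse, was higher: 2758, 2962 and 2443 in wild type against 3689, 3759 and 4183 in the tbx16 line (0.51 ± 0.12, adjusted p = 0.0119). Samples did not overlap, and the call was lost without wild-type replicate 3 (adjusted p = 0.0531). The other lower receptors were *fzd2* (−0.60 ± 0.13, adjusted p = 0.00621) and *fzd3a* (−0.68 ± 0.20, adjusted p = 0.0264), the latter not called without wild-type replicate 1 or 3 (adjusted p up to 0.0783) or with library size alone (adjusted p = 0.0789).

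Both Ror genes, which encode receptor tyrosine kinase-like proteins that bind Wnt5a in mammals, were lower in the tbx16 line. *ror1* had 392.3, 367.0 and 619.1 normalized counts in wild type and 278.3, 183.1 and 197.3 in the tbx16 line (−1.07 ± 0.24, adjusted p = 0.00863). *ror2* had 3518, 3578 and 4299 against 2642, 2330 and 2617 (−0.59 ± 0.14, adjusted p = 0.0106). For each gene all tbx16-line samples lay below all wild-type samples, and the call for *ror2* was lost with library size alone (−0.44, adjusted p = 0.0649).

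Of the 18 secreted modulators tested, 6 were lower and 2 higher in the tbx16 line, 44.4% called where 30.7% of all genes were. *notum1a* stood at 946.9, 791.3 and 1285 normalized counts in wild type and at 203.7, 145.9 and 138.6 in the tbx16 line. The samples were far apart, with a log2 fold change of −2.63 ± 0.26 (adjusted p = 7.55e-05), 6.19-fold lower. Its paralog *notum1b* moved the other way: it stood at 497.2, 584.4 and 562.3 in wild type and at 3364, 3770 and 4028 in the tbx16 line. Every tbx16-line sample was several times above wild type, at 2.76 ± 0.16 (adjusted p = 4.24e-06) or 6.79-fold higher. The R-spondins *rspo2* and *rspo3* also moved in opposite directions. *rspo2* fell from 380.4, 391.6 and 367.8 in wild type to 35.1, 46.5 and 60.4 in the tbx16 line (−3 ± 0.24, adjusted p = 2.3e-05). *rspo3* rose from 179.7, 147.3 and 95.3 to 944.7, 1220 and 1099 (2.95 ± 0.27, adjusted p = 5.37e-05). Neither R-spondin had a tbx16-line sample within the wild-type range.

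Of the soluble Wnt-binding proteins, *wif1* had 3977, 3857 and 3199 normalized counts in wild type and 1206, 1550.2 and 1764 in the tbx16 line, a clear separation (−1.29 ± 0.16, adjusted p = 0.000296). *sfrp5* had 307.4, 344.8 and 524.7 in wild type against 127.3, 34.3 and 38.2 in the tbx16 line (−2.56 ± 0.55, adjusted p = 0.00629). Replicate 1 of the tbx16 line was well above the other samples of its line and still below wild type. *sfrp1b*, with 141.4, 160.1 and 130.9 in wild type against 16.7, 7.9 and 16.9 in the tbx16 line, was lower by a wide margin (−3.39 ± 0.35, adjusted p = 0.000101). *sfrp1a* was lower by less (−0.85 ± 0.25, adjusted p = 0.0262). The call for *sfrp1a* was lost in 5 of the 9 fits that left out a sample, namely any wild-type replicate or tbx16-line replicate 1 or 2 (adjusted p up to 0.0969). *sfrp2l*, the modulator with the most reads, had 3501, 3496 and 4139 in wild type against 3032, 3316 and 3330.2 in the tbx16 line and was not called (−0.20, adjusted p = 0.536). *dkk1b*, the best known Dkk gene of zebrafish head formation, was at 624.0, 778.5 and 667.2 in wild type against 344.2, 502.0 and 538.6 in the tbx16 line. Its lower level was not called (−0.58, adjusted p = 0.139), but was in a fit of these genotypes alone (−0.60, adjusted p = 0.0381).

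In tg(*hsp70l:msgn1*) tailbuds 7 of the 55 Wnt genes differed from wild type, 4 lower and 3 higher, where 0.854% of all genes tested were called, 0.497% lower and 0.357% higher. The lower genes were the ligands *wnt3a* and *wnt2bb* and the modulators *notum1a* and *rspo2*; the higher genes were *wnt4b*, *fzd8a* and *frzb*. At an unadjusted p below 0.05 there were 24 Wnt genes, with 14.1% of all genes, and in 27 the samples of the msgn1 line and wild type did not overlap, as was so for 18.6% of all genes. All 7 called genes changed at least 1.5-fold, which with the call was so for 0.813% of all genes. The median log2 fold change was −0.59 over the ligands and 0.09 over the receptors and modulators, against −0.02 over all genes. With library size alone, where the median of all genes was −0.20 and the lower share of all calls went from 58.2% to 77%, 7 Wnt genes were called and 5 of them were lower.

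*wnt2bb* had 393.7, 338.2 and 333.1 normalized counts in the msgn1 line, all far below the wild-type samples given above (−1.45 ± 0.17, adjusted p = 0.00418, 2.74-fold). It was the call in this line that held in all 9 fits with a sample left out, at −1.54 to −1.37 and an adjusted p of 0.00538 to 0.0314. *wnt3a* had 41.9, 45.3 and 52.3, likewise below every wild-type sample (−1.60 ± 0.26, adjusted p = 0.0244). Its call held in 4 of those 9 fits and was lost without any wild-type replicate or without msgn1-line replicate 1 or 3 (adjusted p up to 0.13). *wnt4b* had 29.0, 43.1 and 59.6, above the few reads of wild type and below every tbx16-line sample (3.51 ± 0.67, adjusted p = 0.0452). Its call held in 1 of the 9 fits, the one without msgn1-line replicate 2, and the adjusted p reached 0.128 in the others; it was 0.0626 with library size alone and 0.158 in a fit of only these genotypes.

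*notum1a* stood at 355.0, 350.4 and 545.9 normalized counts in the msgn1 line, below every wild-type sample (−1.27 ± 0.25, adjusted p = 0.0466). It was called in 3 of the 9 fits, and lost without any wild-type replicate, tbx16-line replicate 2 or 3 or msgn1-line replicate 1 (adjusted p up to 0.17). *rspo2* stood at 125.8, 174.6 and 158.1, again without overlap (−1.31 ± 0.22, adjusted p = 0.0275), and was called in 4 of the 9 fits, lost without any wild-type replicate or msgn1-line replicate 1 or 3 (adjusted p up to 0.127). The paralogs of this pair were not called in the msgn1 line: *notum1b* was at 351.7, 437.7 and 284.5 (−0.61 ± 0.16, adjusted p = 0.129) and *rspo3* at 340.4, 201.1 and 217.6 (0.84 ± 0.26, adjusted p = 0.223). DESeq2 called *notum1b* lower (adjusted p = 0.0175).

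*fzd8a* went the other way from its change in the tbx16 line. Its normalized counts in the msgn1 line were 1392, 1177 and 1395, all above the highest wild-type sample (1.18 ± 0.16, adjusted p = 0.00899, 2.26-fold). *frzb*, a soluble Frizzled-related protein also known as Sfrp3, had 951.9, 929.5 and 807.3 in the msgn1 line against 375.9, 392.7 and 423.6 in wild type (1.17 ± 0.16, adjusted p = 0.00878), and 281.8, 363.2 and 262.2 in the tbx16 line (−0.39 ± 0.16, adjusted p = 0.0815). Wild type thus lay between the lines for both genes, with no overlap. Each call in the msgn1 line held in 7 of the 9 fits and was lost without wild-type replicate 1 or 2 (adjusted p up to 0.0717).

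**Figure D3:**
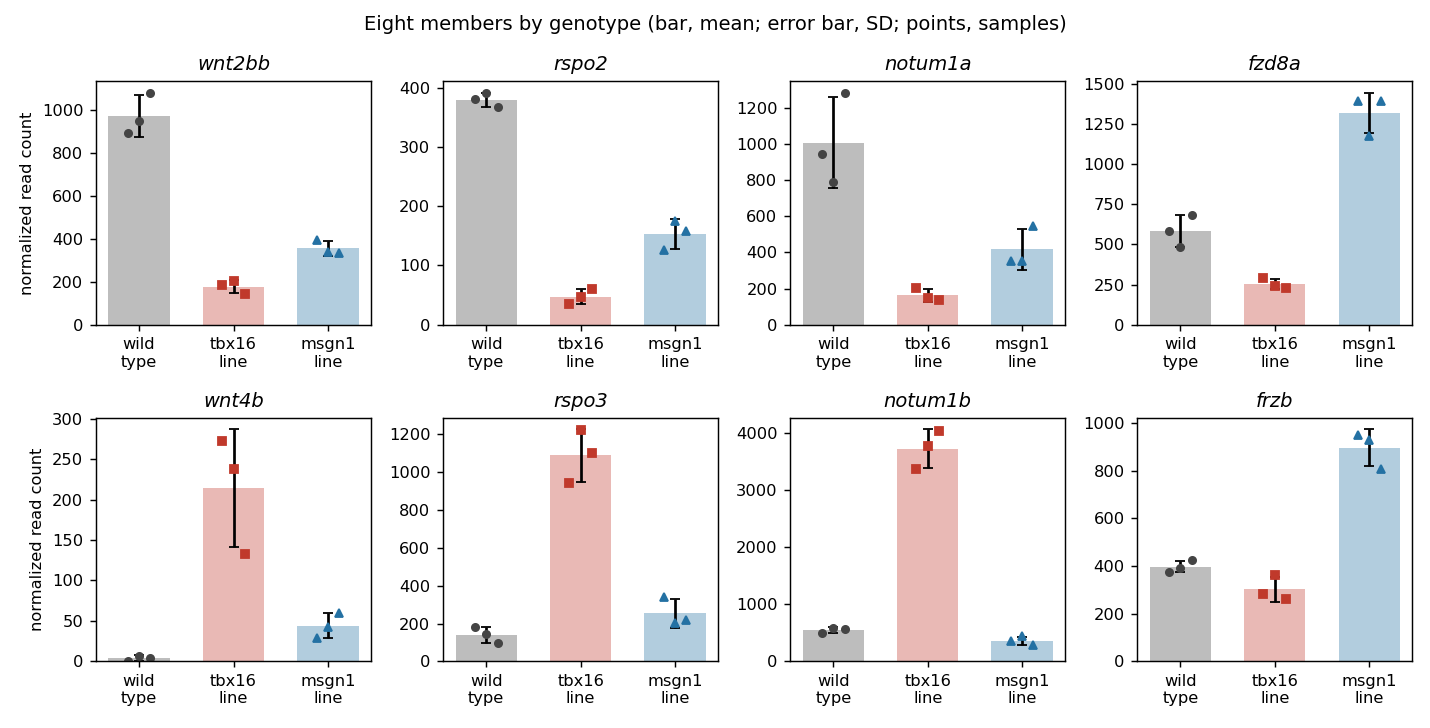
Normalized read count (linear scale from 0) of 8 Wnt genes by genotype; bars are means, error bars SD over 3 samples and points single samples. *wnt2bb*, *rspo2* and *notum1a* step down from wild type to the msgn1 line to the tbx16 line, *wnt4b* and *rspo3* step up in the same order, and *fzd8a* and *frzb* are highest in the msgn1 line, where *frzb* reached 951.9.

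edgeR did not call the other Wnt genes described here in the msgn1 line. *wnt8a* had 45.2, 37.6 and 57.1 normalized counts there, overlapping wild type (−0.16 ± 0.38, adjusted p = 0.89). *wnt5a* had 321.1, 286.2 and 296.7, all inside the wild-type range (0.13 ± 0.33, adjusted p = 0.897). *wnt11* had 2940, 2858 and 3127 (−0.24 ± 0.26, adjusted p = 0.718). Each *wnt11* sample of the msgn1 line was below the wild-type samples, by an amount that did not pass the test. *wnt5b* had 3955, 6059 and 5074 (−0.26 ± 0.15, adjusted p = 0.466), *wnt10a* 203.3, 196.7 and 190.9 (−0.02, adjusted p = 0.983) and *wnt16* 77.4, 88.4 and 169.0 (−0.70, adjusted p = 0.598). All 3 overlapped wild type. *wnt9b* had 225.9, 311.7 and 401.2, above every wild-type sample and widely spread (0.67 ± 0.71, adjusted p = 0.71).

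Of the receptors, *fzd7a* was at 18412, 15944 and 17931 normalized counts in the msgn1 line (0.17, adjusted p = 0.543) and *fzd10* at 17475, 20725 and 16697 (0.28, adjusted p = 0.374). *fzd6* was at 3553, 2688 and 3019 (0.18, adjusted p = 0.545). *ror1* stood at 571.2, 607.9 and 770.8 (0.50, adjusted p = 0.379) and *ror2* at 3997, 4572 and 5660 (0.32, adjusted p = 0.341). The Ror genes thus had log2 fold changes above 0 in the msgn1 line, without a call and with samples overlapping wild type, and were lower in the tbx16 line. Their difference between the lines passed the test, at −1.57 ± 0.25 for *ror1* (adjusted p = 0.00102) and −0.91 for *ror2* (adjusted p = 0.000952). Of the modulators, *wif1* was at 4690, 4183 and 3637 (0.18, adjusted p = 0.64), *sfrp5* at 119.4, 165.8 and 348.9 (−0.89, adjusted p = 0.467) and *sfrp2l* at 2331, 2890 and 4944 (−0.13, adjusted p = 0.837). Replicate 3 of the msgn1 line was the highest of its line for *sfrp5* and *sfrp2l*. A p above the threshold does not show that these levels were equal, and with DESeq2 6 ligands and 7 receptors and modulators were called in this line. The share of all genes that DESeq2 called was not counted, so its counts cannot be set against a background.

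**Figure D4:**
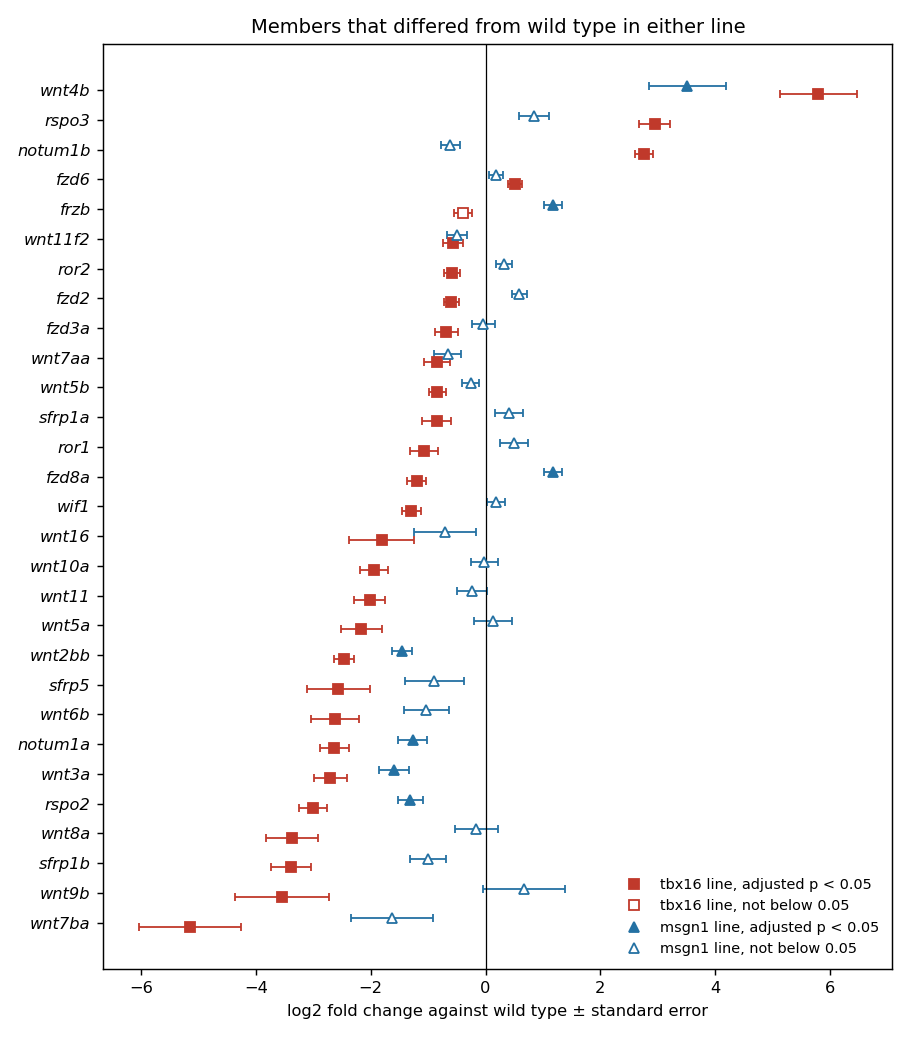
Log2 fold change against wild type ± SE of the 29 Wnt genes called in at least 1 line; red squares are the tbx16 line, blue triangles the msgn1 line, and filled symbols mark an adjusted p below 0.05. Filled squares extend from 5.79 (*wnt4b*) to −5.14 (*wnt7ba*). Both extremes rest on a genotype with few reads, wild type for *wnt4b* and the tbx16 line for *wnt7ba*. The filled triangles are *wnt4b*, *fzd8a*, *frzb*, *notum1a*, *rspo2*, *wnt2bb* and *wnt3a*.

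The difference between the lines was tested directly as well. Of the 55 Wnt genes 32 differed, 24 lower and 8 higher in the tbx16 line than in the msgn1 line, where 38.3% of all genes were called, 19.8% lower and 18.5% higher. A change of at least 1.5-fold was found for 28 of those called (29.7% of all genes), an unadjusted p below 0.05 for 35 (48.3%), and samples without overlap for 36 (51.1%). With library size alone, where the median of all genes between the lines was 0.38 and the lower share of all calls went from 51.6% to 23.4%, 30 Wnt genes were called and 18 of them were lower. This comparison and those with wild type share samples and are not independent. For the patterns of calls across comparisons given below, the share of all genes with the same pattern was not counted.

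For 16 genes that edgeR called lower in the tbx16 line but did not call in the msgn1 line, the test between the lines was also passed: *wnt8a*, *wnt5a*, *wnt5b*, *wnt6b*, *wnt7ba*, *wnt9b*, *wnt10a*, *wnt11*, *fzd2*, *fzd3a*, *ror1*, *ror2*, *sfrp1a*, *sfrp1b*, *sfrp5* and *wif1*. The difference between the lines was −3.20 ± 0.45 for *wnt8a* (adjusted p = 0.00053), −2.29 ± 0.35 for *wnt5a* (adjusted p = 0.000916) and −1.78 ± 0.27 for *wnt11* (adjusted p = 0.000903). For *wnt5b* it was −0.58 ± 0.15 (adjusted p = 0.0127), lost without tbx16-line replicate 2 (adjusted p = 0.0501) and with library size alone (−0.27, adjusted p = 0.271), and for *sfrp5* it was lost without tbx16-line replicate 2 or 3 or msgn1-line replicate 3 (adjusted p up to 0.132). *fzd2* differed by −1.19 between the lines (adjusted p = 0.000137), with the tbx16-line samples below and the msgn1-line samples above all of wild type; DESeq2 called it higher in the msgn1 line than in wild type (0.60, adjusted p = 0.00124).

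The 4 genes lower than wild type in both lines, *wnt3a*, *wnt2bb*, *notum1a* and *rspo2*, were also lower in the tbx16 line than in the msgn1 line, by −1.10 ± 0.27 (adjusted p = 0.011), −1.01 ± 0.17 (adjusted p = 0.00135), −1.36 ± 0.25 (adjusted p = 0.00246) and −1.69 (adjusted p = 0.000509) on the log2 scale. The difference for *wnt3a* was not called with library size alone (adjusted p = 0.0578). *wnt4b*, higher than wild type in both lines, was higher in the tbx16 line than in the msgn1 line by 2.27 ± 0.52 (adjusted p = 0.00757). *fzd8a* showed a difference of −2.38 ± 0.17 between the lines (adjusted p = 1.1e-05), *notum1b* of 3.38 ± 0.17 (adjusted p = 1.72e-06) and *rspo3* of 2.11 (adjusted p = 0.000293). The test between the lines was not passed by *wnt7aa* (−0.18, adjusted p = 0.552), *wnt11f2* (−0.07, adjusted p = 0.763), *wnt16* (−1.11, adjusted p = 0.138) and *fzd6* (0.33, adjusted p = 0.0597).

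A further 7 genes differed between the lines without a call by edgeR against wild type: *wnt1*, *wnt3*, *wnt4*, *fzd1* and *dkk1a* were higher, and *fzd7b* and *fzd10* lower, in the tbx16 line. *wnt3*, chosen after its values were seen, had 233.5, 197.5 and 175.2 normalized counts in wild type, 213.3, 173.8 and 203.5 in the tbx16 line and 104.9, 110.5 and 116.7 in the msgn1 line. The msgn1-line samples lay below all others, by −0.87 ± 0.19 against wild type (adjusted p = 0.0781, and 0.00731 by DESeq2) and with 0.83 ± 0.19 between the lines (adjusted p = 0.00792). *wnt4* had 348.5, 353.7 and 302.7 in the msgn1 line, also below all other samples (−0.73 ± 0.16 against wild type, adjusted p = 0.0745, and 0.00347 by DESeq2). *wnt1* had no read in any msgn1-line sample and between 4.8 and 14 normalized counts in the others. Taking 3 reads per library as the floor, its msgn1-line level was at least 2.28-fold below wild type and at least 2.76-fold below the tbx16 line. These bounds cover the counting error of the msgn1 line only, and take the mean of the other genotype as exact. DESeq2 called *wnt1* lower (adjusted p = 0.0277) and *fzd7b* higher (0.38, adjusted p = 0.0242) in the msgn1 line than in wild type. The lower level of *fzd10* in the tbx16 line than in the msgn1 line (−0.38 ± 0.13, adjusted p = 0.0445) held in 2 of the 9 fits with a sample left out, and was −0.07 (adjusted p = 0.743) with library size alone. The call for *fzd7b* between the lines was lost without tbx16-line replicate 1 or msgn1-line replicate 3, and with library size alone (−0.06, adjusted p = 0.583). That for *wnt4* held in 5 of the 9 fits. It was lost with the replicate block (adjusted p = 0.0512) and in a fit of only these lines (adjusted p = 0.0576).

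The 3 genotypes were wholly separate, with no overlap between any of them, in 16 Wnt genes (7.73% of all genes tested). The share of all genes in each order of the genotypes was not counted. The order from low to high was tbx16 line, msgn1 line, wild type for 8 genes, *wnt2bb*, *wnt3a*, *wnt6b*, *wnt7ba*, *wnt11*, *notum1a*, *rspo2* and *sfrp1b*. It was tbx16 line, wild type, msgn1 line for 4 (*fzd2*, *fzd8a*, *frzb* and *wnt9b*). The reverse of the latter, with the msgn1 line lowest and the tbx16 line highest, was found for *notum1b* and *fzd1*, and *rspo3* and *wnt4b* rose from wild type to the msgn1 line to the tbx16 line.

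edgeR made no call in any comparison for 19 genes: *wnt6a*, *wnt7bb*, *wnt8b*, *wnt9a*, *wnt10b*, *fzd3b*, *fzd5*, *fzd7a*, *fzd8b*, *fzd9a*, *fzd9b*, *dkk1b*, *dkk2*, *dkk3a*, *dkk3b*, *notum2*, *rspo1*, *sfrp2* and *sfrp2l*. Of the 59 genes, 36 had a mean of at least 100 reads, 12 of them ligands, and 5 ligands had a mean below 10. *wnt9a*, chosen after its values were seen, had 22.8, 0 and 16.4 normalized counts in wild type and 81.7, 42.9 and 65.8 in the tbx16 line, apart in every sample but not called (2.24, adjusted p = 0.108); DESeq2 called it between the lines (2.80, adjusted p = 0.0288). *wnt8b*, chosen likewise, had no read in any msgn1-line sample and 1 tbx16-line sample with reads (24.6 normalized counts). By the same floor *wnt8b* was at least 2.91-fold lower in the msgn1 line than in wild type. That bound covers the counting error of the msgn1 line only, and edgeR did not call the difference (adjusted p = 0.33). Among the genes with at least 100 reads, the median coefficient of variation between samples was 14.2% for ligands and 11% for receptors and modulators in wild type, 25% and 14% in the tbx16 line, and 11.3% and 15.2% in the msgn1 line. The widest spread was that of *wnt9b* in the tbx16 line, at 138%, and the narrowest that of *wnt11* in wild type, at 2.05%.

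Reads of some Wnt genes may belong to a neighbour, since the sources used here do not say whether strand was used in counting. By the RefSeq gene models of a later assembly, 14 of the 59 genes overlap another protein-coding gene, and 10 of these were called in some comparison. Among them are *wnt8a* (with *gria1a* and the second Wnt8 gene *wnt8-2*), *wnt7ba* (with *pparaa*), *wnt11* (with *lhfpl6*), *wnt2bb* (with *mov10b.1*), *wnt5b* (with *fbxl14b*), *notum1b* (with *tmc6b*), *fzd3a* (with *fbxo16*), *sfrp1a* (with *zmat4a*) and *wnt3* (with *nsfb*). Their values are uncertain to that extent.

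The machinery around these genes was read from 2 further lists. Of 20 tested genes for Wnt release and cell-surface partners, 7 were lower and 1 higher in the tbx16 line, 40% called where 30.7% of all genes were. *wls*, the carrier that brings Wnts to the surface, was lower by −0.53 (adjusted p = 0.00777), the planar polarity co-receptor *ptk7a* by −0.89 (adjusted p = 0.000584) and the planar polarity gene *vangl1* by −2.19 (adjusted p = 0.000684). *apcdd1l*, related to a membrane inhibitor of Wnt signalling, was lower by −3.58 (adjusted p = 0.000295), and the co-receptor *lrp6* was higher by 0.99 (adjusted p = 0.00189). In the msgn1 line edgeR called none of the 20, with 4 at an unadjusted p below 0.05 (14.1% of all genes). DESeq2 called 2, without a count of its calls over all genes.

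Of 30 tested genes that act inside the cell, edgeR called 3 lower and 5 higher in the tbx16 line, 26.7% against the 30.7% of all genes. The nuclear partners of β-catenin went both ways: *lef1* was lower (−0.57, adjusted p = 0.0103), and *tcf7* (0.95, adjusted p = 0.000476), *tcf7l1b* (0.70, adjusted p = 0.00615) and *tcf7l2* (1.37, adjusted p = 5.18e-05) were higher. *axin2*, a feedback inhibitor widely used as a readout of β-catenin signalling, was not called in the tbx16 line (−0.15, adjusted p = 0.438) or in the msgn1 line (−0.44, adjusted p = 0.215). The 1 gene that edgeR called in the msgn1 line was the planar polarity gene *prickle2b* (0.57, adjusted p = 0.038). There 9 of the 30 had an unadjusted p below 0.05 (14.1% of all genes). In 13 the samples did not overlap wild type (18.6% of all genes). The log2 fold change was below 0 for 21 and above 0 for 9. *lef1* (−0.59, adjusted p = 0.0826) and *nkd2a* (−0.99, adjusted p = 0.074) were among the lower genes without a call. In the tbx16 line *nkd2a* was called higher (0.79, adjusted p = 0.017). DESeq2 called 6 genes of this list lower and 5 higher in the tbx16 line, and 2 lower and 1 higher in the msgn1 line. The share of all genes called by DESeq2 was not counted, and the 30.7% is edgeR's.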

How the data were processed

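The authors trimmed reads with Trim Galore 0.5.0, mapped them to GRCz11 with HISAT2 2.1.0 and quantified genes with StringTie. They deposited raw whole-number counts per gene, without scaling; the annotation release, the step to whole numbers and the strand setting are not given in the sources used here. Columns were matched to samples by genotype and replicate number. Of 32020 lines, 64 without a name (0.082% to 0.101% of counts) were left out of library sizes and tests. The 9 samples were fitted with edgeR 4.0.16 in R 4.3.3 (1 coefficient per genotype, TMM, filterByExpr, quasi-likelihood F-test, Benjamini-Hochberg adjustment over 19914 genes). The script was tested on simulated data. Replicate pairs differed beyond counting error (chi-square per gene 18.6 to 90). That the samples of a genotype came from separate crosses is not stated, so p-values measure the spread between these pools.

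Full values are given for genes called against wild type with a mean of at least 100 reads and no overlap (up to 12 per comparison and direction), for *wnt2bb*, *wnt8a*, *wnt11*, *wnt3a* and *wnt5b*, and for the 2 genes with the most reads in each role. Members and lists were chosen with earlier results of these data known. The alternatives were RLE size factors, library size alone, DESeq2 1.42.0, no filter on low counts, a mean of at least 10 counts, a fit to a single pair of genotypes, a replicate block, each sample left out in turn, an adjusted p of 0.01, a 1.5-fold threshold, and lines of 1 name summed. Gene overlaps were read from RefSeq gene models of another assembly, for names only; all 59 genes were matched by symbol.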

Additional observations from a re-analysis of the deposited data

How the results depend on the processing

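The counts of called Wnt genes in the tbx16 line stayed within 1.5 times their value (14 ligands, 14 receptors and modulators) under every alternative run, and lay between 11 and 14 ligands and between 11 and 16 receptors and modulators with each sample left out. The share of all genes called was not counted for the fits with a sample left out or for the alternatives that follow. The msgn1 line depended on the settings. Its 3 ligands became 1 at an adjusted p of 0.01, 6 by DESeq2 and 1 with the replicate block, and its 4 receptors and modulators became 2, 7 and 2. With each sample left out they ran from 1 to 4 and from 0 to 8, with 0 receptors and modulators without wild-type replicate 1 or 2 and 8 without msgn1-line replicate 2. Between the lines, 14 ligands became 9 at an adjusted p of 0.01, and the counts ran from 13 to 15 ligands and from 15 to 18 receptors and modulators with each sample left out. No Wnt gene called in the main or the alternative fit reversed its direction. Over the 9 fits that each left out a sample, 22 of 28 calls in the tbx16 line, 1 of 7 in the msgn1 line and 26 of 32 between the lines held in every fit. How many of the calls over all genes held in every fit was not counted, so these counts have no background. Between wild type and the msgn1 line, samples with the same replicate number correlated at 0.018 to 0.402 (mean 0.175). Those with different numbers correlated at −0.325 to 0.265 (mean −0.087). Between wild type and the tbx16 line the same numbers gave −0.069 to 0.116. The labels do not say that the numbers mark shared clutches, so the main fit did not use them as pairs. Whether wild type and the msgn1 line were paired is not known. With the block, *notum1a*, *rspo2*, *wnt3a* and *wnt4b* were not called in the msgn1 line (adjusted p 0.0698, 0.0539, 0.0649 and 0.104). The causes were not tested. *wnt1* and *wnt8b* had no read in the msgn1 line, so their differences from it are given as bounds. These cover the counting error of the msgn1 line only.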

Other observations

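In the RefSeq gene order some Wnt ligand genes lie side by side with no protein-coding gene between them. *wnt6b* and *wnt10a*, which are such neighbours, were both lower in the tbx16 line (−2.62 ± 0.42, adjusted p = 0.00127, and −1.94 ± 0.24, adjusted p = 0.000285, by edgeR) and were not called in the msgn1 line (−1.03, adjusted p = 0.29, and −0.02, adjusted p = 0.983). *wnt3a* and *wnt9a*, also neighbours, had log2 fold changes of opposite sign in the tbx16 line, −2.70 for *wnt3a* (adjusted p = 9.4e-05) and 2.24 for *wnt9a*, which was not called (adjusted p = 0.108). *wnt1* and *wnt10b* overlap each other, and edgeR called neither against wild type, whereas DESeq2 called *wnt1* lower in the msgn1 line (adjusted p = 0.0277). Each pair was chosen after its values were seen.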
